A study of Mus musculus with 4 samples.

Results

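The segment of mouse chromosome 9 that flanks Myd88 was examined gene by gene in salivary glands of Myd88-deficient and wild-type mice. Its members were the non-control probes that map to chromosome 9 from position 99245000 (NCBI37/mm9), which lies 20 Mb from the Myd88 probe on the centromere side, to the end of the chromosome. The rule used position alone and no measured value. It selected 673 of the 55681 probes on the array, carrying 455 names of genes or transcripts, and the remainder of chromosome 9 holds 2108 probes. A gene was tested if the scanner software called one of its probes well above background throughout 1 genotype or both, and the brightest probe that qualified stood for the gene. Of the member probes, 397 met this criterion and represented 310 genes, out of 22312 genes tested on the whole array. A further 153 probes were well above background on some arrays without meeting it, and 123 were so on none.

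Total RNA was measured on 4 one-colour Agilent whole mouse genome arrays, 2 of glands labelled Myd88-null (Myd88-/-) and 2 of glands labelled wild type (Myd88+/+). All 4 samples carry the labels C57/BL6, female, 10 weeks of age, and submandibular and sublingual glands, whereas the methods speak of submandibular glands (SMGs). The labels give the null genotype for the mouse and name no promoter or cell type that would limit it, and the methods state that mice of both genotypes came from heterozygous parents after backcrossing to C57BL/6. The study describes more mice per genotype for its arrays than there are arrays here, and whether RNA was pooled is not given in the sources used here. Nothing in the labels says that the 2 arrays of a genotype came from separate animals, so each p-value measures the spread between these arrays, which may be technical.

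MyD88 is the adaptor that couples most Toll-like receptors and the interleukin-1 receptor family to NF-κB and MAP kinases. A gene targeted in embryonic stem cells is inherited together with the DNA on either side of it. Backcrossing shortens this stretch by recombination, so genes close to the target can keep alleles of the stem cell strain, while those farther away are more often replaced by alleles of the recipient strain. The strain of the stem cells and the length of any such stretch in these mice are not given in the sources used here.

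The measurements near the target rest on single probes of 60 bases. The first 30 bases of the probes for Myd88 and for the neighbours with the largest difference in each direction within 500 kb are shown because the results below turn on them. They are given 5′ to 3′ on the strand of the transcript, with mm9 positions, and start at base 1629 of the Myd88 transcript, base 4779 of Itga9 and base 1321 of 4930516B21Rik.
Myd88, chr9:119245352-119245381, minus strand: ggtttgcatcttcttattcctttcacgttc
Itga9, chr9:118807900-118807929, plus strand: taccttcagctttgtgtagccaaaaaagcc
4930516B21Rik, chr9:119347698-119347727, plus strand: ctcttgacagattgcctccacacagtatgg

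The 250 bases before the annotated start of Myd88 in RefSeq (GRCm38.p6, chr9:119340019-119340268, minus strand) are shown because the targeted gene kept a signal on the Myd88-/- arrays. On the other side of this stretch lies Acaa1a, which is transcribed away from Myd88. Between the annotated Myd88 and Acaa1a genes lie 1009 bases, this stretch included. Capitals mark the letters TATAAA and GGGCGG, searched on both strands.
Myd88 promoter: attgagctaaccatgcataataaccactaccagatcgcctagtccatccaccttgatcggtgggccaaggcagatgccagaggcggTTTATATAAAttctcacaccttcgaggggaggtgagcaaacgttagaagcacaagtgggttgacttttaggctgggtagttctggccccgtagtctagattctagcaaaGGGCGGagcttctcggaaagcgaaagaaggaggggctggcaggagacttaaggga
TATAAA occurs here on both strands in an overlapping run, and 12.4% of the 32851 promoter windows in the table contain it on either strand. GGGCGG begins 55 bases before the start and is found in 32.7% of the windows. CCAAT, found in 33.8%, is not among these letters. A match is a description of the letters and not a site of binding.

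The 4 arrays differed in how many probes they detected. The share of the segment's probes well above background was 55.4% for Myd88-/- array 1, 72.4% for Myd88-/- array 2, 78.5% for Myd88+/+ array 1 and 58.7% for Myd88+/+ array 2, with the same order over the whole array (52.2% to 74.2%). Values were therefore also compared within the pair of arrays with fewer detected probes and the pair with more. Signals are given as log2 of the processed signal relative to the 75th percentile of the same array, so 0 is that percentile, and differences are Myd88-/- minus Myd88+/+ in log2 units. All arrays lie on 1 slide, and all 11 marker genes of submandibular acini and ducts were well above background on every array. Of these, 6 had an unadjusted p under 0.05, all higher on the Myd88-/- arrays, with a list median of 0.30 and the largest difference, 1.57, in Smgc. B cell markers were lower in 6 of 6 tested, with a summed level (in multiples of the 75th percentile) of 1.86 to 2.16 on the Myd88-/- arrays against 9.67 to 18.5, and Ms4a1 and Faim3 were well above background on neither Myd88-/- array. Adipocyte markers were lower in 5 of 5 tested, at 113 to 183 against 249 to 261. Their part in the values of the segment was not tested. T cell, neutrophil and skeletal muscle markers are given beside the genes of the segment that such cells express.

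The signal of Myd88 itself was higher on the Myd88-/- arrays. Its probe has 10 spots on each array, with a mean log2 signal of 1.51 and 1.41 in the Myd88-/- glands against 1.15 and 1.07 in wild-type glands. The groups did not overlap, and the spread of the spots within an array was 0.05 to 0.07 (SD). This amounted to 0.35 log2 units (standard error 0.11) with an adjusted p of 0.264 from limma over all genes tested. Which exons the allele lacks is not stated in the sources used here, so the labels cannot be checked with this probe, and every direction below rests on them.

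Within 500 kb of Myd88, 22 names are on the array and 17 genes were tested, Myd88 included. Of these, 13 differed by less than 0.3 log2 units in either direction, 12 did not overlap between the genotypes, and 3 had an unadjusted p under 0.05 (limma). Over all genes tested, 16.7% had an unadjusted p under 0.05 and 52% did not overlap. None of the 17 genes passed adjustment.

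The neighbour with the largest difference was Itga9, which encodes the α9 subunit of an integrin that binds tenascin-C and osteopontin. Its log2 signal was -2.69 and -1.86 on the Myd88-/- arrays against -0.64 and -0.96 on the Myd88+/+ arrays. Both Myd88-/- arrays were the lower ones, and they differed from each other more than the Myd88+/+ arrays did. The difference of -1.47 (standard error 0.34) had an adjusted p of 0.220 in limma's fit. Omitting single arrays gave values from -1.89 to -1.05, and the difference was -0.75 under normexp background correction.

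The neighbour with the largest increase was 4930516B21Rik, a RIKEN cDNA on the plus strand, 102 kb towards the telomere. It read -3.09 and -3.12 on the Myd88-/- arrays and -3.74 and -3.79 on the Myd88+/+ arrays. Arrays of 1 genotype lay close together and the genotypes were separate. The log2 difference of 0.66 (standard error 0.10) had an adjusted p of 0.194, the smallest value that limma gave on this array, which other genes share, and was 0.34 under normexp background correction. Its probe lies 5 kb from that of Acvr2b, an activin receptor transcribed from the same strand, which had a log2 difference of -0.23.

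**Figure D1:**
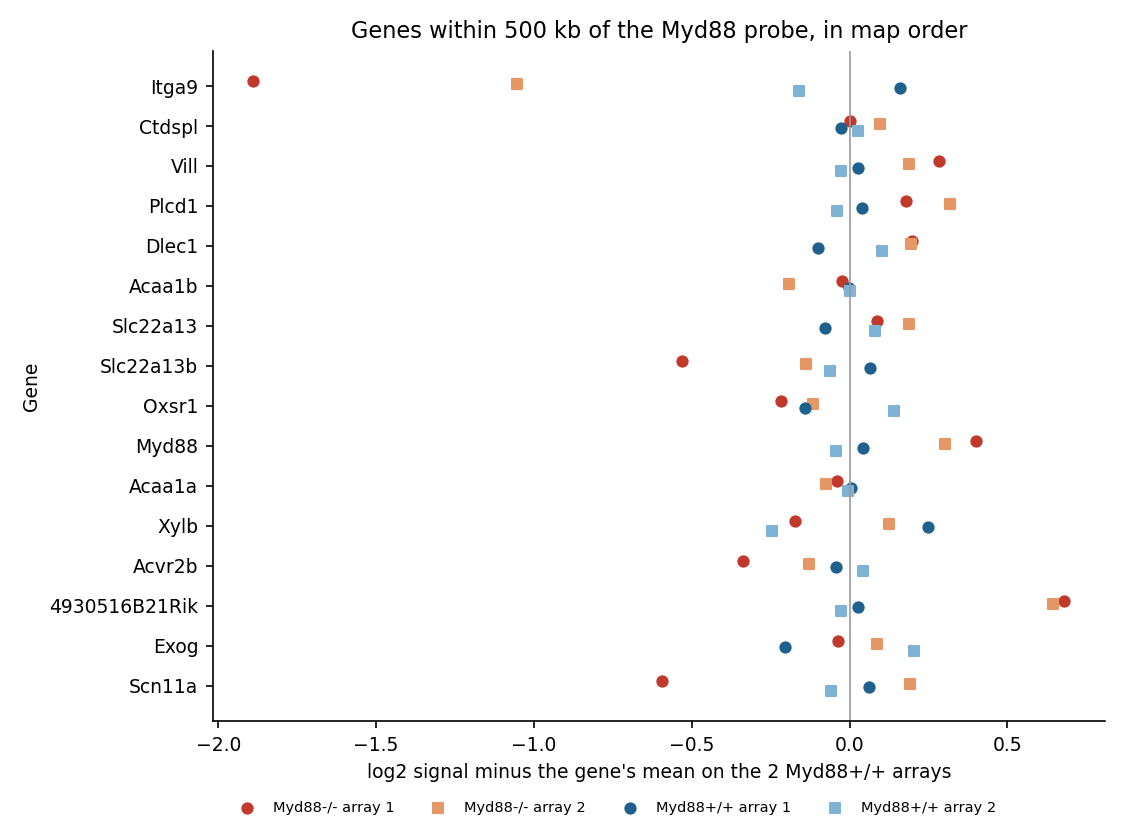
Log2 signal on each of the 4 arrays, minus the gene's mean on the 2 Myd88+/+ arrays (x axis), for 16 of the 17 tested genes within 500 kb of the Myd88 probe (y axis, in map order with the centromere side at the top). Itga9 stands apart to the left, Myd88 and 4930516B21Rik to the right, and 13 of the 17 genes differ between the genotypes by less than 0.3.

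Between Itga9 and Myd88 the differences were small and of both signs. The small phosphatase gene Ctdspl differed by 0.05, Vill (a villin-like protein) by 0.24, Plcd1 (a phospholipase C) by 0.25 and Dlec1 by 0.20. The thiolase gene Acaa1b differed by -0.11, the organic anion transporter genes Slc22a13 and Slc22a13b by 0.14 and -0.33, and the kinase gene Oxsr1 by -0.17. The sign of Oxsr1 depended on the probe, because its second probe gave 0.21. Slc22a14, which lies in the same transporter cluster, was well above background on 1 array and was not tested.

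The gene closest to the Myd88 promoter, Acaa1a, encodes the peroxisomal 3-ketoacyl-CoA thiolase of fatty acid β-oxidation. It read 5.74 and 5.71 on the Myd88-/- arrays and 5.78 and 5.77 on the Myd88+/+ arrays. The arrays lay within 0.1 of each other and the difference was -0.06 (standard error 0.10). Further towards the telomere, Xylb (xylulokinase) differed by -0.02, Exog (a mitochondrial nuclease) by 0.02 and Scn11a (a sodium channel of sensory neurons) by -0.20. Scn10a, next to Scn11a, was well above background on no array.

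Just beyond 500 kb on the telomere side, 3 more genes had an unadjusted p under 0.05. They were Gorasp1, a Golgi stacking protein, with a log2 difference of 0.61 at 590 kb, Csrnp1, a nuclear protein induced by axin, with -0.56 at 635 kb, and Slc25a38, a mitochondrial glycine carrier, with 0.35 at 788 kb. These were chosen after their values were seen. The 2 probes of Gorasp1 gave 0.47 and 0.61. The adjusted p of the 3 genes lay between 0.274 and 0.284 (limma).

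Across the whole segment, 0 of 310 genes had an adjusted p under 0.05 in limma's fit, as did 0% of all 22312 genes, and the smallest adjusted p was 0.194 in both. At an unadjusted p under 0.05 there were 49 genes, or 15.8%, against 16.7% of all genes tested. Of the 49, 32 were higher on the Myd88-/- arrays (10.3% of the segment, 9.82% of all genes) and 17 lower (5.48%, 6.83% of all genes). The 2 genotypes did not overlap in 162 genes (52.3%, 52% of all genes), 104 of them higher on the Myd88-/- arrays (33.2% of all genes) and 58 lower (18.7% of all genes). A positive difference was found in 193 genes (62.3%), as in 59.6% of all genes. The count of 49 was 29 without Myd88-/- array 1, 22 without Myd88+/+ array 1 and 26 without Myd88+/+ array 2. When the scaling percentile came from detected probes alone, 24 of 44 such genes (54.5%) were higher in place of 65.3%, and with scaling by the median, chosen after seeing the data, 2 of 9 (22.2%) were higher. With 2 arrays against 2, an exact permutation test of a single gene cannot give a two-sided p below 0.333.

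The sizes of the differences were also near those of the array as a whole. The median log2 difference was 0.06 in the segment and 0.06 over all genes tested, and the median size regardless of sign was 0.189 and 0.195. At least 2-fold differences were found in 9 genes (2.9%), against 4.79% of all genes. On the rest of chromosome 9, 140 of 792 genes (17.7%) had an unadjusted p under 0.05 and the median difference was 0.05. Apart from the 2-fold differences, which were less frequent in the segment without a test of that difference, these shares lay close to the background.

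The same count was made by distance from Myd88. Under 1 Mb on either side, Myd88 left out, 5 of 31 genes (16.1%) had an unadjusted p under 0.05, 1 of 13 on the centromere side and 4 of 18 on the telomere side, and the median size of the difference was 0.20. The count was 5 of 30 genes at 1 to 5 Mb on the centromere side, 7 of 51 at 5 to 10 Mb and 25 of 145 at 10 to 20 Mb. On the telomere side it was 6 of 52 from 1 Mb to the end. Within 5 Mb in either direction, Myd88 included, 17 of 114 genes (14.9%) had an unadjusted p under 0.05, 11 higher and 6 lower. This count was 8 without Myd88-/- array 1, 4 without Myd88+/+ array 1 and 8 without Myd88+/+ array 2.

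**Figure D2:**
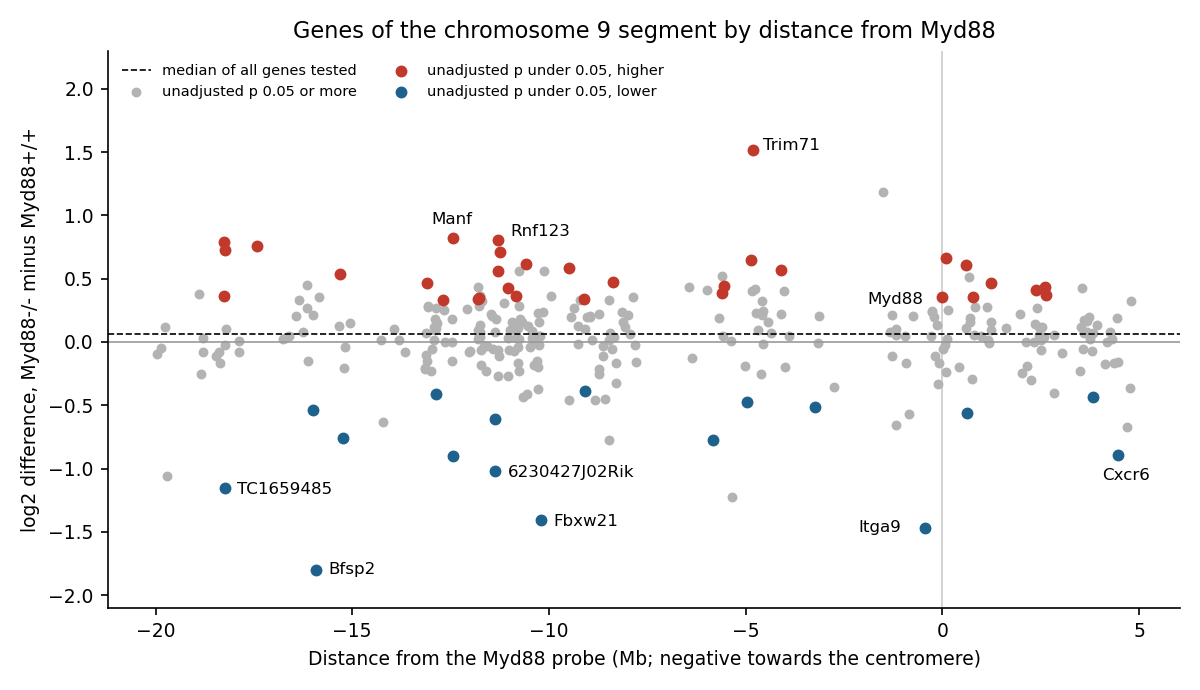
Log2 difference, Myd88-/- minus Myd88+/+ (y axis), of the 310 tested genes against distance from the Myd88 probe (x axis, Mb, negative towards the centromere), each point 1 gene. Genes with an unadjusted p under 0.05, 32 higher in red and 17 lower in blue, are spread over the whole segment, and the dashed line at 0.06 is the median of all genes tested.

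**Figure D3:**
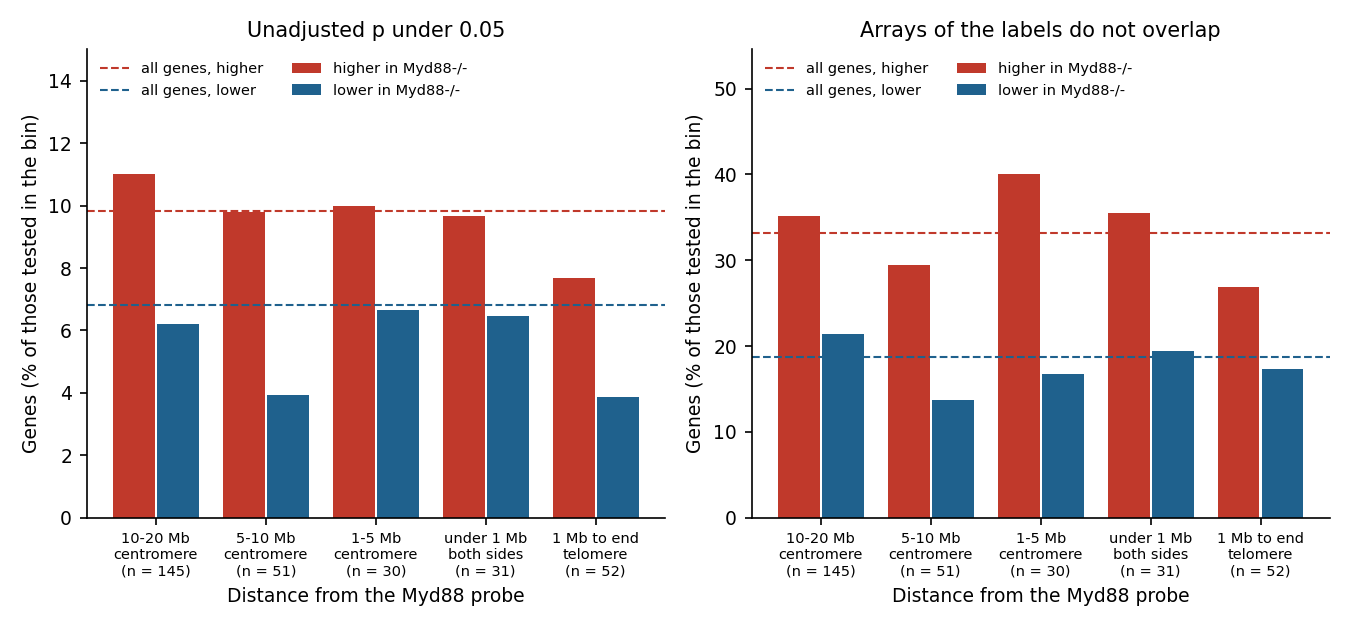
Share of tested genes in each distance bin (x axis) with an unadjusted p under 0.05 (left, y axis in %) or with arrays that do not overlap between genotypes (right, y axis in %), split by direction, with the share over all genes tested as dashed lines. Under 1 Mb, 9.68% of genes were higher and 6.45% lower at an unadjusted p under 0.05, beside 9.82% and 6.83% of all genes.

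The largest increases by the rule for naming genes (an unadjusted p under 0.05 and no overlap between the genotypes) were Trim71, Manf, Rnf123, a transcript named by its position, Ephb1, Ppp2r3a, Bsn, 4930516B21Rik, Glb1 and Prkar2a. Trim71, an RNA-binding ubiquitin ligase of early development, read -3.43 and -2.74 on the Myd88-/- arrays and -5.14 and -4.05 on the Myd88+/+ arrays. It was not well above background on either Myd88+/+ array, so it was tested through the Myd88-/- arrays alone, where it is high, and its increase is a bound of at least 2.46-fold (adjusted p = 0.274 from limma). For such bounds the dim genotype was set, array by array, at the lowest signal called well above background, or at the measured signal where that was larger.

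Manf, a secreted protein induced by stress of the endoplasmic reticulum, was bright on all arrays, at 3.75 and 3.33 against 2.79 and 2.66. Both Myd88-/- arrays lay above both Myd88+/+ arrays by more than the arrays of 1 genotype differed, with a difference of 0.82 (standard error 0.19, adjusted p = 0.220). Rnf123, a ubiquitin ligase, read 2.44 and 2.23 against 1.57 and 1.49. Its difference of 0.80 (standard error 0.12) had an adjusted p of 0.195, and of 0.037 with limma's trended and robust moderation.

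Of the other largest increases, 4 genes of known role with differences between 0.6 and 0.8 are given here, and Ppp2r3a (0.72) is described below. Ephb1, a receptor tyrosine kinase for B-type ephrins, differed by 0.76, and Bsn, a scaffold of the presynaptic active zone, by 0.71. Bsn read -0.11 and -0.26 against -0.86 and -0.93, a gap several times the spread within either genotype. Glb1, the lysosomal β-galactosidase, differed by 0.65 and Prkar2a, a regulatory subunit of protein kinase A, by 0.62. Glb1 was uneven between the Myd88-/- arrays, at 1.34 and 0.85, and its difference was 0.41 without array 1.

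The largest decreases by the same rule were Bfsp2, Itga9, Fbxw21, TC1659485, 6230427J02Rik, Dock3, Cxcr6, AU023762, Ccrl1 and Uba7. Bfsp2, which encodes a beaded filament protein of the lens, read -4.19 and -3.88 on the Myd88-/- arrays and -1.82 and -2.64 on the Myd88+/+ arrays. It was not well above background on either Myd88-/- array and was at least 3.23-fold lower there (adjusted p = 0.203). In the segment, 7 tested genes were well above background on no array of 1 genotype, so that they entered through the other genotype alone. Of these, 5 are among the 49 genes with an unadjusted p under 0.05 (Trim71, Bfsp2, TC1659485, 6230427J02Rik and AU023762), and 44 of 303 genes remain without them. Tested genes detected on 1 array of a genotype also entered through the other genotype alone. With detection required on all 4 arrays, 51 of 288 genes (17.7%) had such a p in limma's fit, beside 18.2% of all genes. Fbxw21, an F-box protein, read -1.54 and -2.45 against -0.41 and -0.76. The difference was -1.41 (standard error 0.37, adjusted p = 0.238), and -0.95 without Myd88-/- array 2.

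Dock3, which activates the small GTPase Rac, read 4.11 and 3.71 on the Myd88-/- arrays against 4.90 and 4.72. Both Myd88-/- arrays were below both others, the difference was -0.90 (standard error 0.19, adjusted p = 0.209), and a dimmer probe with overlapping arrays gave -1.19. Uba7, the activating enzyme of an interferon-induced ubiquitin-like modifier, read 1.16 and 1.17 against 1.74 and 1.80. Its arrays agreed closely within each genotype, and the difference of -0.61 (standard error 0.10) had an adjusted p of 0.198, or 0.044 with trended and robust moderation. AU023762 was not well above background on either Myd88-/- array, and no bound above 1-fold could be given.

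**Figure D4:**
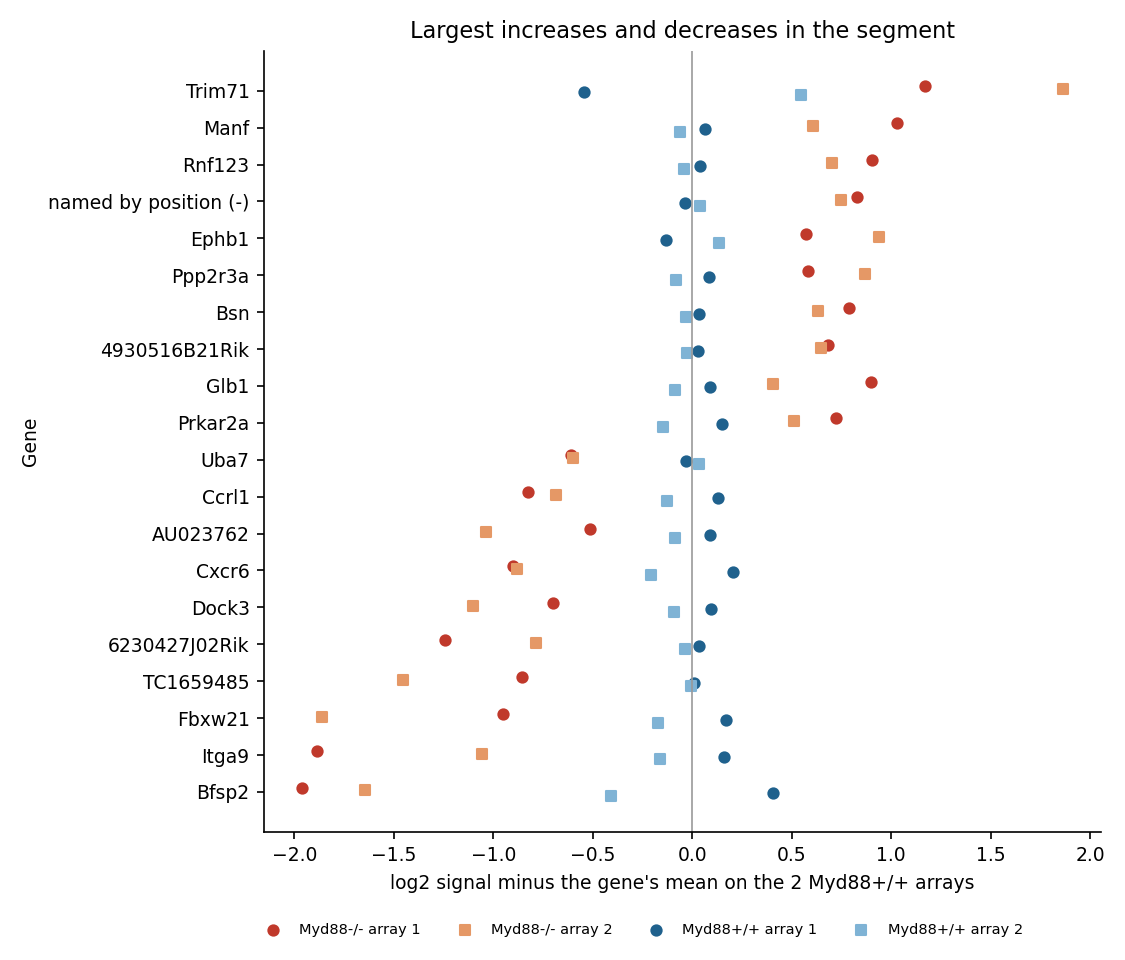
Log2 signal on each of the 4 arrays, minus the gene's mean on the 2 Myd88+/+ arrays (x axis), for the 10 largest increases (top) and 10 largest decreases (bottom) of the segment that had an unadjusted p under 0.05 and no overlap between genotypes (y axis). By that rule the red and orange points of the Myd88-/- arrays lie on 1 side of the blue points, and Trim71, Fbxw21, Itga9 and Bfsp2 show the widest spread within a genotype.

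Several differences in the segment came from dim signals and were smaller under normexp background correction, which was run with an offset of 50. There Trim71 was at 0.49, Bfsp2 at -0.49, Ccrl1 at -0.18, Ephb1 at 0.36, Ppp2r3a at 0.35, Fbxw21 at -0.84 and 6230427J02Rik at -0.03. TC1659485 and AU023762 changed sign, to 0.01 and 0.10. Brighter genes moved less, among them Myd88 (0.29) and Tgfbr2 (-0.55). An offset added to every signal shrinks the log2 differences of dim probes more than those of bright ones. The smaller values are therefore not a test of the dim genes, which also holds for the normexp values of Itga9 and 4930516B21Rik above.

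Chemokine receptors guide leukocytes, and many of their genes lie in the segment. Of 14 such receptors on the array, 10 were tested, 0 had an adjusted p under 0.05, and 2 had an unadjusted p under 0.05, both lower, where 16.7% of all genes tested had such a p and 6.83% were lower. The list's median log2 difference was -0.23, beside 0.06 for all genes tested. Cxcr6, the receptor for Cxcl16 on T cells, read -1.73 and -1.71 on the Myd88-/- arrays against -0.62 and -1.03. Both of its probes were lower, by -0.89 and -0.90, with an adjusted p of 0.204. Ccrl1, an atypical receptor that scavenges chemokines, read -3.34 and -3.20 against -2.39 and -2.64, with a difference of -0.76. Its second probe was well above background on the Myd88+/+ arrays alone.

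The other chemokine receptors showed no common direction. Ccr2 was at -0.37 and Ccr3 at -0.67, while Ccr9 was at 0.19 and Cx3cr1 at 0.19. Ccr3 ranged from -1.51 to 0.17 with 1 array left out in turn. Ccr1, Ccr1l1, Ccr4 and Xcr1 did not meet the detection criterion. T cell markers were lower too. All 8 tested markers were lower on the Myd88-/- arrays, 4 of them with an unadjusted p under 0.05, and those detected on every array ranged from -3.06 for Lck to -0.04 for Cd4. Their summed level, as multiples of the 75th percentile, was 11.7 to 12.1 on the Myd88-/- arrays and 15.9 to 20.6 on the Myd88+/+ arrays. Most of it on the Myd88-/- arrays came from Cd4 and Cd3e, which differed by -0.04 and -0.06, so the sum says little about the other markers. Cd8a was the marker of this list that no Myd88-/- array showed well above background. Their part in the values of Cxcr6 was not tested, and in bulk glands fewer cells of a type cannot be told apart from less RNA per cell.

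Antimicrobial genes of granules in the segment were few. Camp, the cathelicidin precursor, read -2.91 and -2.72 on the Myd88-/- arrays against -2.17 and -2.55, a difference of -0.46 (adjusted p = 0.337). Ltf differed by -0.33 and the transferrin gene Trf by -0.15, both with overlapping arrays, and Ngp did not meet the detection criterion. Ltf and Trf changed sign with 1 array left out. Among 6 tested neutrophil markers 5 were lower, 2 with an unadjusted p under 0.05 (S100a9 at -1.45 and Mpo at -1.44). S100a8 was at -1.54 with an unadjusted p of 0.063 (limma) and was well above background on 1 Myd88-/- array. The list median was -0.95. The summed level of the tested markers was 161 to 170 on the Myd88-/- arrays and 155 to 185 on the others. Nearly all of it came from Csf3r (-0.03), and without Csf3r it was 3.72 to 4.39 against 4.07 to 4.73. Most of that remainder came from Elane, which differed by 0.20, so neither sum says much about S100a8, S100a9 and Mpo. Of the tested markers, Mpo was well above background in wild-type glands alone, and the part of these markers in the values of Camp and Ltf was not tested.

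Genes of TGF-β, activin, Nodal and Wnt signalling were split in direction, with 4 of 8 higher and 4 lower and a median of 0.02. The single member with an unadjusted p under 0.05, beside 16.7% of all genes tested, was Tgfbr2, the type II TGF-β receptor. It read 2.36 and 2.36 on the Myd88-/- arrays and 2.91 and 2.84 on the Myd88+/+ arrays. The difference was -0.51 (standard error 0.10, adjusted p = 0.204, or 0.048 with trended and robust moderation), and its second probe gave -0.08. Ctnnb1, which encodes β-catenin, was at 0.11 and the Wnt co-receptor gene Ryk at 0.20.

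Of 6 tested extracellular matrix and adhesion genes, 3 had an unadjusted p under 0.05, all lower, beside 6.83% of all genes that were lower by that criterion. The list's median was -0.20. Besides Itga9 the 3 included Crtap, part of the complex that hydroxylates prolines of collagen, at -0.47 and the proteoglycan gene Cspg5 at -0.39. Crtap read 1.24 and 1.46 against 1.81 and 1.83, with both Myd88-/- arrays below both others. Dag1, the dystroglycan gene, was at 0.31 and the laminin gene Lamb2 at 0.04. Col6a4 did not meet the detection criterion.

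The 3 hyaluronidase genes lie close together at -11.8 Mb from Myd88, with other genes between Hyal1 and Hyal3, and all were higher. Hyal2 read 3.78 and 3.60 against 3.30 and 3.38, Hyal1 1.63 and 1.90 against 1.35 and 1.46, and Hyal3 -3.43 and -3.12 against -3.55 and -3.73. The genotypes did not overlap in any of them, as in 33.2% of all genes tested in the same direction, and the differences were 0.35, 0.36 and 0.37. Their adjusted p was 0.293, 0.333 and 0.369 (limma), and their sign was kept in every setting tried.

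DNA repair, chromatin and mitosis genes showed both directions, with a median of 0.00 over 11 tested. Topbp1, which activates the replication checkpoint, read -1.25 and -1.23 against -0.71 and -0.69, with arrays of 1 genotype close together. Its difference of -0.54 (standard error 0.10) had an adjusted p of 0.203. Parp3 was at -0.41 and Smarcc1, a core subunit of the SWI/SNF complex, at 0.34. The 4 probes of Smarcc1 ranged from 0.17 to 0.95. Kif9 was at -0.46 with overlapping arrays, and Kif15 did not meet the detection criterion.

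Among genes of ribosomal proteins and the ubiquitin pathway, the ribosomal protein genes differed little, with Rpsa at 0.06, Rpl14 at 0.09 and Rpl29 at 0.12. Uba7, described above, was the lowest of the genes named here from this list. The deubiquitinase genes Usp19 and Usp4 were at 0.36 and 0.16.

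Counts for transporter and kinase genes are read beside the 16.7% of all genes tested that had an unadjusted p under 0.05. Of 7 tested solute carriers, 1 (Slc25a38) had an unadjusted p under 0.05, and the carnitine carrier gene Slc25a20 was at -0.44. Slc38a3 was at 0.32, but ranged from -0.50 to 1.14 with 1 array left out. Slc6a20b did not meet the detection criterion. Of 8 tested kinase and G protein genes, Prkar2a alone had an unadjusted p under 0.05, with Mapkapk3 at 0.26, Plcd1 at 0.25 and Gnai2 at -0.18. Gnat1 and Camkv did not meet the criterion. The semaphorin genes Sema3b and Sema3f and the semaphorin receptor gene Plxnb1 differed by -0.06, -0.03 and 0.05.

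Of 3 striated muscle genes, Lrrc2 was at 0.48, with 0.93 and 0.81 on the Myd88-/- arrays against 0.45 and 0.34. Xirp1 was at 0.51, and from 0.12 to 0.90 with 1 array left out. Myl3, a myosin light chain, was at -0.45 with overlapping arrays, and from -0.86 to -0.05 with 1 array left out. Skeletal muscle markers elsewhere in the genome went the other way from Lrrc2. All 9 tested were lower on the Myd88-/- arrays, each with an unadjusted p under 0.05, and those detected on every array ranged from -7.52 for Myh8 to -2.11 for Acta1. Their summed level was 2.41 to 2.51 against 26.6 to 150. Myh4, Myh2 and Actn3 were well above background on neither Myd88-/- array and Myh1 on 1 of them, so these entered through the wild-type arrays alone. The part of muscle tissue in the values of Lrrc2, Xirp1 and Myl3 was not tested.

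**Figure D5:**
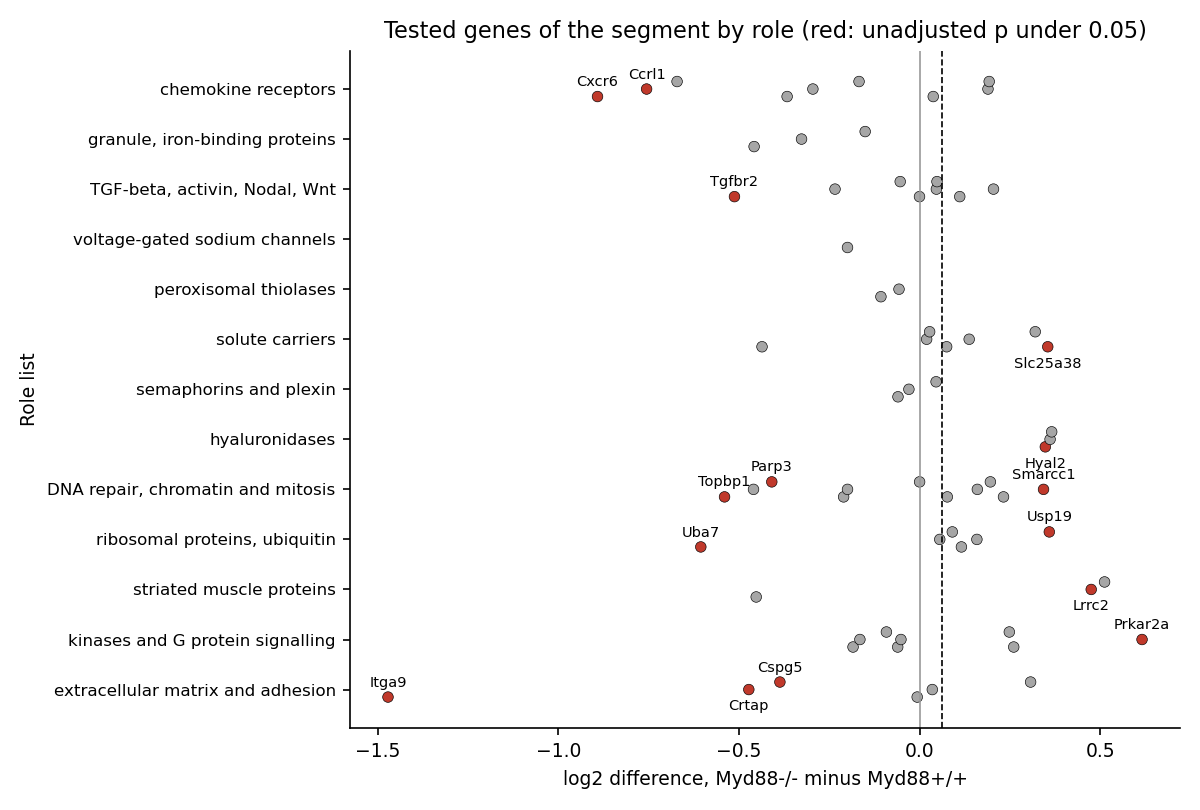
Log2 difference, Myd88-/- minus Myd88+/+ (x axis), of the tested genes reported here in 13 role lists of the segment (y axis), with named red points for an unadjusted p under 0.05 and the dashed line at 0.06 for the median of all genes tested. Most lists straddle 0, and the 3 hyaluronidases lie together between 0.35 and 0.37.

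Some genes of the segment have close neighbours on the other strand. Probes of different genes or transcripts on opposite strands lay less than 1500 bases apart in 16 pairs, and both members had the same sign in 13. In 5 pairs both genes had an unadjusted p under 0.05, with the same sign in 4. Sign and p were those of each gene's brightest tested probe, which is not always the probe in the pair. Over all genes tested, 59.6% were positive and 16.7% had such a p. Pairs elsewhere on the array were not counted. Some of the pairs join transcripts named by position, which were mostly higher (below). Uba7 and 6230427J02Rik, whose probes are 483 bases apart, were both lower, Uba7 by -0.61 and 6230427J02Rik, which neither Myd88-/- array showed well above background, at least 1.21-fold. Rnf123 and Gmppb, a pyrophosphorylase that makes GDP-mannose, were both higher (0.80 and 0.56), with probes 335 bases apart. Both are pairs of genes that converge, and transcripts that run on into the neighbour were not measured.

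The pair that went apart overlaps in sequence. The probe of Ppp2r3a, a regulatory subunit of protein phosphatase 2A, and that of the expressed sequence TC1659485 share 38 bases (mm9, chr9:101010199-101010236) on opposite strands. The 30 bases from 101010199 are shown as each probe reads them, 5′ to 3′, with capitals for the shared letters.
Ppp2r3a probe, minus strand: TAACTTCAAGCCTTTCAGAGAAATGTGGAA
TC1659485 probe, plus strand: TTCCACATTTCTCTGAAAGGCTTGAAGTTA
Ppp2r3a read -2.71 and -2.43 on the Myd88-/- arrays against -3.21 and -3.38, a difference of 0.72 (adjusted p = 0.209). TC1659485 read -4.64 and -5.24 against -3.78 and -3.79, was not well above background on either Myd88-/- array, and was at least 1.16-fold lower. A second Ppp2r3a probe, more towards the 5′ end of the gene and well above background on neither Myd88-/- array, gave -0.78, so that the mean over both probes was -0.03.

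Different probes of a gene did not always agree elsewhere in the segment either. Of 72 genes with more than 1 tested probe, 48 had all probes in 1 direction, and in 11 genes or transcripts the probes lay more than 0.5 apart. The widest gap was in Alas1, the first enzyme of haem synthesis. Its brighter probe read 4.70 and 4.68 against 4.86 and 4.82, a difference of -0.15, whereas its second probe read 2.99 and 1.32 against 4.89 and 4.54, a difference of -2.56 with a wide spread between the Myd88-/- arrays. The 2 probes of the protease gene Prss50 gave -0.77 and 0.79.

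The array also carries probes named by chromosomal position rather than by gene, of which 112 lie in the segment and 20 transcripts were tested. Of these, 17 were higher on the Myd88-/- arrays and 5 had an unadjusted p under 0.05, all higher, with a median log2 difference of 0.28. Over all genes tested 59.6% were positive, 9.82% were higher with such a p and the median was 0.06. The largest increase was that of a minus-strand transcript with its probe at chr9:100980794-100980853 (mm9), which read -1.41 and -1.49 against -2.28 and -2.20. Its plus-strand counterpart was also higher, by 0.36. Without these transcripts 44 of 290 genes in the segment (15.2%) had an unadjusted p under 0.05 and the median difference was 0.05, a comparison added after seeing the data.

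The 2 pairs of arrays with like detection gave the same picture. The median difference of the segment was 0.08 in the pair with fewer detected probes, Myd88-/- array 1 against Myd88+/+ array 2, and 0.06 in the other pair. Over all genes tested these medians were 0.05 and 0.07. Of the 310 genes, 218 had the same sign in both pairs, beside 15304 of all 22312 genes tested. All 49 with an unadjusted p under 0.05 had the same sign in both, a criterion that itself favours equal signs.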

How the data were processed

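Feature Extraction files of 4 Agilent one-colour arrays were used, whose deposited processed-signal intensity (gProcessedSignal) had been background-subtracted by the authors with Agilent Feature Extraction 10.7.3.1, per the file headers on build mm9. A deposited table with 4 processed value columns could not be assigned to samples and was not used. No spot was saturated. Spots with outlier flags were left out (99 to 131 per array), spots of a probe were averaged, and log2 intensity minus each array's 75th percentile was fitted with limma 3.58.1 (R 4.3.3, lmFit and eBayes), with Benjamini-Hochberg adjustment over all genes tested. The fit was tested on simulated data. Genes were named by rule: those within 500 kb, the 10 largest increases and decreases at an unadjusted p under 0.05 without overlap, and up to 4 per role list. Other genes named were chosen after their values were seen. Members and lists were chosen with earlier results of these data known. Gene names are those of the array, and 258 of 310 match a RefSeq symbol or synonym. The replicate numbers did not pair the arrays (correlation of deviations -0.373 for same numbers). The number of arrays limits the precision. Alternatives covered background correction, scaling, filters, probe choice, moderation, the methods' t-test, a replicate block, each array left out and other segment limits. Some genes are not reported here.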

Additional observations from a re-analysis of the deposited data

How the results depend on the processing

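Adjustment over all genes left 0 genes of the segment in every setting tried, except 4 with trended and robust moderation (Nme6, Rnf123, Tgfbr2 and Uba7, 1.29% of the segment beside 2.16% of all genes) and 1 with scaling by the median (Bfsp2, detected on the Myd88+/+ arrays alone). The count of 49 genes at an unadjusted p under 0.05 became 29 without the filter on dim probes (of 455 genes), 24 within 10 Mb on the centromere side (of 165 genes) and 9 with scaling by the median, and was 22 to 39 with each array left out. Scaling by the median lowered the share over all genes likewise, to 4.46%. The count of 17 within 5 Mb became 9 without the filter, 11 with the methods' t-test, 7 of 47 genes within 2 Mb and 3 with scaling by the median, and was 4 to 14 with each array left out. With the replicate block these counts were 31 and 10. With the crossed replicate pairs as a block, added after seeing the data, they were 49 and 14. The count of 162 genes without overlap became 80 of 165 within 10 Mb and 29 with scaling by the median. The median difference of 0.06 became 0.0144 with the percentile over detected probes, 0.00933 with scaling by the median and 0.0987 without the filter. Over all genes it became 0.02, 0.01 and 0.12 in these settings. The log2 difference of Myd88 stayed between 0.29 and 0.40.

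The sign of small or dim differences was not stable. Under normexp background correction it turned for Ctdspl (-0.00949), Xylb (0.000868), Scn11a (0.0915), TC1659485 (0.0133), AU023762 (0.0971) and Myl3 (0.0359), and under quantile normalization for Ctdspl (-0.0202). With the percentile over detected probes it turned for Exog (-0.0222) and Plxnb1 (-0.00125), and with the mean of a gene's probes for Oxsr1 (0.0209) and Ppp2r3a (-0.0262). With scaling by the median it turned for Ctdspl (-0.00388), Exog (-0.0273) and Plxnb1 (-0.00637). With each array left out the ranges that crossed 0 were -0.27 to 0.23 for Xylb, -0.59 to 0.19 for Scn11a, -1.51 to 0.17 for Ccr3, -0.85 to 0.20 for Ltf, -1.21 to 0.29 for Kif9, -0.000241 to 0.10 for Ctdspl, -0.18 to 0.23 for Exog, -0.40 to 0.0931 for Trf, -0.50 to 1.14 for Slc38a3, -0.16 to 0.25 for Plxnb1, -0.11 to 0.0501 for Sema3f and -0.18 to 0.0553 for Sema3b. The causes were not tested. Signal over background limits the dim genes, for which only bounds could be given.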
